A study of Mus musculus with 10 samples.

Results

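Collagens, laminins and integrins were taken as every gene whose mouse symbol has the form of a collagen chain (Col, number, a, number), a laminin chain (Lama, Lamb or Lamc with a digit) or an integrin subunit (Itga or Itgb with a number or letter), with Lama1 and Col4a1 left out. The rule used names only and no measured value, but the families were chosen with earlier results of these data known. It gave 79 genes of the 52636 identifiers counted: 43 collagens, 10 laminins and 26 integrins. RNA was sequenced from E14 cells, a mouse embryonic stem cell line of male origin in wide use for differentiation studies. The cells had grown on gelatin in medium with serum, LIF and inhibitors of MEK and GSK, and both groups were then replated on gelatin without LIF and the inhibitors and given retinoic acid, a vitamin A derivative that drives exit from pluripotency, for 24 h at a dose that the labels write as 2 µm. WT cells were set against CBE-KO cells, which lack a CTCF binding element that the series ties to contacts between enhancers and the HoxA genes, with 2 libraries per group called biological replicates. The labels do not say whether CBE-KO is 1 clone or how the element was removed, so a difference between the groups cannot be told apart from a difference between cell clones. The question was which of these genes are detected and how each family differs when the element is missing.

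Collagens are secreted chains that wind together in sets of 3 into fibres, sheets or beaded filaments, and collagen IV forms the sheet of the basement membrane. Laminins are cross-shaped molecules of an alpha, a beta and a gamma chain that start basement membrane assembly, and in the early embryo they are among the first matrix proteins made. Integrins are cell-surface receptors of an alpha and a beta subunit that bind these proteins outside the cell and tie them to actin inside it. In embryonic stem cells they mediate attachment to the culture surface and to matrix the cells lay down.

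The libraries held 14108038 to 15632960 counts, so 3 counts, the floor used here, stood for 0.192 to 0.213 CPM (counts scaled to a common library size). Replicates differed by more than counting noise (chi-square per degree of freedom 3.66 for WT and 2.84 for CBE-KO), and libraries of different groups differed more (22.7 to 25.8). Ctcf, the gene for the protein that binds the element, had 2419 and 2172 counts in the WT libraries against 2505 and 2309 in CBE-KO (edgeR log2 fold change -0.05 ± 0.05, SE; adjusted p = 0.472), but the removed element is noncoding and no gene count could check its loss. The groups also differed in Y-linked genes: Ddx3y had 6 and 5 counts in the WT libraries against 920 and 822 in CBE-KO, although the line is of male origin. What part this has in the results was not tested. The embryonic stem cell markers Pou5f1, Sox2 and Nanog were abundant in all 4 libraries, with at least 3827 counts each. Of 7 such markers, 2 rose (Nanog by 0.15 ± 0.04 and Dppa5a by 0.28 ± 0.04, log2, SE) and 5 fell, from Pou5f1 at -0.33 ± 0.05 to Utf1 at -1.67 ± 0.05.

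Of the 79 genes, 77 had a count in at least 1 library and 65 in every library, while 11 never exceeded 3 counts. The test kept genes of about 10 counts in at least 2 libraries, which left 56: 28 collagens, 8 laminins and 20 integrins. Between CBE-KO and WT, 32 of these 56 passed at an adjusted p under 0.05 (edgeR, quasi-likelihood, with the false discovery rate controlled over all tested genes), 57.1% where 43.1% of all 16005 tested genes passed. Of the 32, 25 were higher in CBE-KO and 7 lower. This is 44.6% and 12.5% of the tested members, against 21.6% and 21.5% of all genes. The tested members had a median log2 fold change of 0.34, against 0.01 for all tested genes. Of the 25, Col28a1, Col5a2 and Col6a1 had both WT libraries below the filter's cutoff and were tested only through their CBE-KO counts. Col4a5, among the 25, and Lamb3, which did not pass, had WT replicate 1 below it and also needed their CBE-KO counts. Itgb2 was tested only through WT, so the counts of tested genes lean on that filter. Among genes with a mean of at least 1 CPM, 23 of 50 members were higher and 7 lower, against 22.5% and 22.6% of all such genes. In bulk RNA, a gene made by fewer cells and a gene made at a lower rate per cell cannot be told apart.

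By family, collagens and laminins that passed were mostly higher, while integrins that passed went both ways. Of the 28 tested collagens, 13 rose and 3 fell, with a median log2 fold change of 0.34. Of the 8 tested laminins, 6 rose and none fell, with a median of 0.43. Among tested laminins, the count that fell was also 0 at an unadjusted p under 0.05 in edgeR and 0 in DESeq2. These counts leave out Lama2, which had too few reads for the edgeR test and no adjusted p in DESeq2. Lama2 was lower in both CBE-KO libraries, with 12 and 8 counts in WT against 4 and 2. Of the 20 tested integrins, 6 rose and 4 fell, with a median of 0.14. This is 30% and 20%, against 21.6% and 21.5% of all tested genes. With libraries scaled by their totals, 10 rose and 4 fell. That scaling moved the median of all genes to 0.11 and the share of all called genes that were higher from 50.2% to 67.0%. Both libraries of CBE-KO lay above both of WT for 34 of the 56 members and below for 11, against 36.5% and 33.9% of all tested genes. DESeq2 called 22 of the 56 members it tested, 39.3%, where it called 24.7% of all genes. It called 6 collagens higher and 2 lower, 5 laminins higher, and 5 integrins higher and 4 lower, against 10.5% of all genes higher and 14.2% lower.

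**Figure D1:**
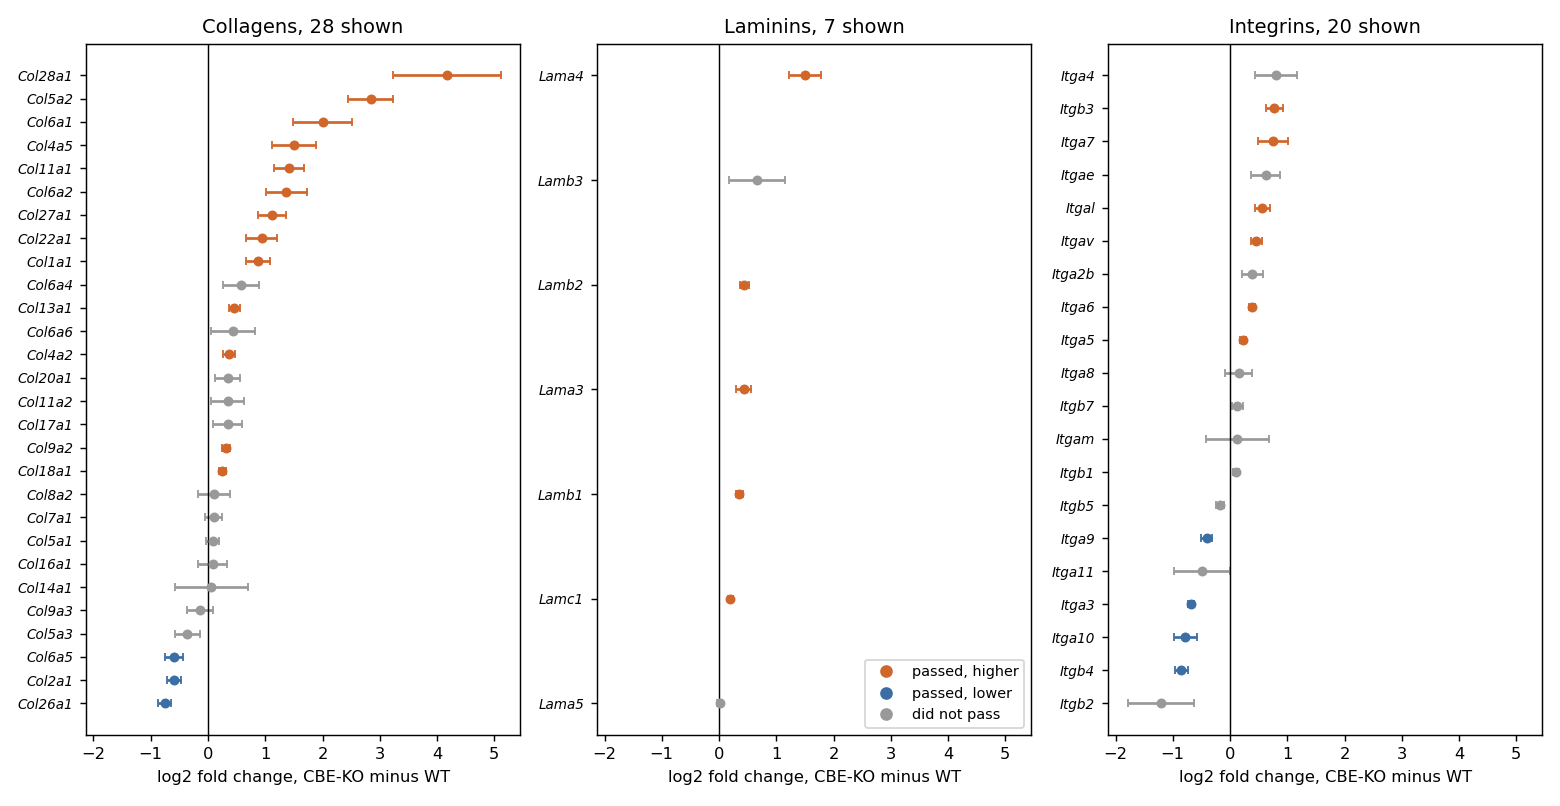
Each point is a tested gene's log2 fold change (CBE-KO minus WT, x axis) with its standard error as a bar, in 3 panels for 28 collagens, 7 of the 8 tested laminins and 20 integrins, each ordered by size. Collagens spread from -0.76 to 4.17, the 7 laminins lie at or above 0.01, and integrins lie on both sides of 0.

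To show the DNA in front of genes that moved in each direction, the bases before 3 genes are printed with a stretch just before Col4a2, whose start faces that of Col4a1. The first 3 end at the base before the gene's RefSeq span on GRCm38 (mm10, the build named in the submitters' processing notes) and run 5′ to 3′ on its strand. Capitals mark the GC box GGGCGG, the CCAAT box, the TATA box TATAAA and the retinoic acid receptor half-site AGGTCA, each searched on both strands, and no marked motifs overlap.
Lamb1, chr12:31265043-31265145, plus strand, a gene that rose: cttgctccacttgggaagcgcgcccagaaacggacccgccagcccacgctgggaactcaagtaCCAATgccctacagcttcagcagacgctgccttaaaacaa
Col11a1, chr3:114030290-114030478, plus strand, a gene that rose: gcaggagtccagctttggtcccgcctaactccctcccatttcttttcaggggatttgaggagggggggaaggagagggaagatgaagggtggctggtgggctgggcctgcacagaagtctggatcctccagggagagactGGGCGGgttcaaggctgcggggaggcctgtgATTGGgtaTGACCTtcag
Itga3, chr11:95076845-95076964, minus strand, a gene that fell: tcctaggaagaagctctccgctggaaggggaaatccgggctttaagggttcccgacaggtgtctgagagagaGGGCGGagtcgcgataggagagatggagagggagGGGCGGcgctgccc
Col4a2, chr8:11312757-11312782, plus strand, 48 to 23 bases before its start: CCGCCCgaggagctccCCAATttgtt

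The 103 bases before Lamb1 hold 1 CCAAT box, the 120 before Itga3 hold 2 GC boxes, and the 189 before Col11a1 hold 1 GC box, 1 CCAAT box and 1 half-site. The spans of Col4a1 and Col4a2 share 85 bases, and the stretch shown, with 1 GC box and 1 CCAAT box, lies before the start of Col4a2 and inside the span of Col4a1. Motifs were then counted in the 250 bases before the outermost start in RefSeq's promoter table, which can reach into a gene's span and which matched 57 of the 79 genes. A GC box was in 50.9% of these and in 33% of all 27025 promoter windows of the same length, a CCAAT box in 24.6% and 34.5%, a TATA box in 8.77% and 13%, and the half-site in 14% of both member windows and 13.8% of all. Of the 8 members with a half-site, Col11a1 rose, Col6a5 fell, and the others did not pass or were not tested. A match is a description of letters and not of binding.

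Among basement membrane collagens, the tested chains were higher in CBE-KO. Col4a2 (ENSMUSG00000031503), the alpha 2 chain of the main collagen IV network, had 346 and 414 counts in the WT libraries against 544 and 522 in CBE-KO. The groups did not overlap, and the log2 fold change was 0.37 ± 0.10 (SE; adjusted p = 0.00681, edgeR). Its head-to-head neighbour Col4a1, which makes the partner chain and is no member, had a log2 fold change of 0.37 ± 0.09 (SE; adjusted p = 0.00227, edgeR). The ratio of Col4a2 to Col4a1 counts was 0.646 and 0.661 in WT and 0.626 and 0.683 in CBE-KO, so the chains of this network kept overlapping ratios. Col4a5, an alpha chain of specialised basement membranes, had 9 and 19 counts in the WT libraries against 54 and 33 in CBE-KO (log2 fold change 1.5 ± 0.38, SE; adjusted p = 0.00406, edgeR). Both CBE-KO libraries were above both WT libraries. WT replicate 1 was below the filter's cutoff, so Col4a5 needed its CBE-KO counts to be tested. Col4a3, Col4a4 and Col4a6 were not tested; Col4a6 reached 12 counts in 1 CBE-KO library and 3 in the other.

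Col18a1 (ENSMUSG00000001435), a basement membrane collagen whose end fragment is endostatin, gave 62.7% to 64.1% of all collagen reads in each library, a share of reads that is not corrected for gene length. It had 5621 and 6096 counts in the WT libraries against 7860 and 7302 in CBE-KO. It was higher in both CBE-KO libraries, by a log2 fold change of 0.25 ± 0.06 (SE; adjusted p = 0.00171, edgeR), a fold of 1.19. Col15a1, its close relative, stayed at 4 to 7 counts. Without WT replicate 1, the log2 fold change of Col18a1 was 0.15 and that of Col4a2 was 0.20, and Col4a2 did not pass (adjusted p = 0.155, edgeR). Without CBE-KO replicate 1, Col4a5 did not pass (adjusted p = 0.066, edgeR), and DESeq2 passed neither Col4a2 (adjusted p = 0.0795) nor Col4a5 (adjusted p = 0.0583).

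The fibrillar collagens, which form the fibres of connective tissue, included 8 tested genes, of which 4 rose and 1 fell. This is 50% and 12.5%, against 21.6% and 21.5% of all tested genes. Col5a2, a chain that helps set fibre width, had 5 and 8 counts in the WT libraries against 47 and 55 in CBE-KO. This was the largest rise among the tested fibrillar collagens, a log2 fold change of 2.84 ± 0.39 (SE, with adjusted p = 1.71e-05 in edgeR). Col5a2 was tested only through its CBE-KO counts. Its usual partner Col5a1 had 264 and 225 counts in the WT libraries against 312 and 248 in CBE-KO, groups that overlapped after scaling (0.08 ± 0.12, SE; adjusted p = 0.638, edgeR). Col11a1, a related chain of cartilage fibres, had 28 and 35 counts in the WT libraries against 116 and 69 in CBE-KO (1.42 ± 0.26, SE; adjusted p = 0.000293, edgeR). Col27a1, also a cartilage chain, had 33 and 27 counts in the WT libraries against 69 and 72 in CBE-KO (1.12 ± 0.25, SE; adjusted p = 0.00167, edgeR).

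Col1a1, the alpha 1 chain of type I collagen of bone and skin, had 48 and 50 counts in the WT libraries against 95 and 100 in CBE-KO. The rise was 0.88 ± 0.21 (SE; adjusted p = 0.0029, edgeR), and it did not pass in DESeq2 (adjusted p = 0.0556). Its partner chain Col1a2 was not tested, with 0 and 1 counts in the WT libraries against 12 and 8 in CBE-KO, a ratio of 19.8 (exact 95% interval 3.17 to 821, counting error only). Col3a1, which accompanies type I collagen in soft tissue, had 0 and 0 counts in the WT libraries against 8 and 1 in CBE-KO, so only 1 library rose above the floor. Col2a1, the main collagen of cartilage, moved the other way, from 274 and 273 counts to 197 and 195 (-0.60 ± 0.12, SE; adjusted p = 0.000631, edgeR). Col5a3 and Col11a2 did not pass, and Col24a1 had at most 1 count.

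Collagen VI chains were counted in a mixed group with other collagens, of which Col7a1, Col8a2, Col26a1 and Col28a1 were tested. In this group 3 of 9 tested genes rose and 2 fell, 33.3% and 22.2%, against 21.6% and 21.5% of all genes. Of the 3 that rose, Col28a1 and Col6a1 were tested only through their CBE-KO counts, and DESeq2 called 0 of this group higher and 1 lower. Col6a1 and Col6a2, chains of the beaded filament that surrounds many cells, both rose. Col6a1 had 5 and 4 counts in the WT libraries against 24 and 16 in CBE-KO (2.00 ± 0.52, SE; adjusted p = 0.00457, edgeR). Col6a2 had 17 and 11 counts in the WT libraries against 46 and 33 in CBE-KO (1.37 ± 0.35, SE; adjusted p = 0.00437, edgeR). Neither passed in DESeq2 (adjusted p = 0.0945 and 0.0824) nor in edgeR without CBE-KO replicate 1 (adjusted p = 0.0817 and 0.0625). Col6a3, the chain that completes the usual collagen VI unit, never exceeded 2 counts.

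Col6a5, an alternative collagen VI chain, fell from 175 and 142 counts to 118 and 110 (-0.59 ± 0.16, SE; adjusted p = 0.00569, edgeR; DESeq2 adjusted p = 0.0682). Col26a1 fell from 371 and 397 counts to 251 and 241, the largest fall among the collagens that passed (-0.76 ± 0.11, SE; adjusted p = 1.78e-05, edgeR). Both CBE-KO libraries were below both WT libraries for each. Col28a1 had 1 and 0 counts in the WT libraries against 13 and 11 in CBE-KO, and it passed (adjusted p = 0.00158, edgeR). Its ratio of counts was 23.8 (exact 95% interval 3.88 to 978, counting error only), while its fitted log2 fold change, 4.17, was 6.55 without WT replicate 1 and is no bound. Col8a1 had 0 and 1 counts in the WT libraries against 5 and 7 in CBE-KO and was not tested.

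The fibre-associated and transmembrane collagens included 8 tested genes, of which 3 rose and none fell. In DESeq2 2 rose and none fell. Among all genes tested in edgeR, 21.6% rose and 21.5% fell. Col9a2, which coats cartilage fibres, was the most read of them and rose from 865 and 933 counts to 1216 and 1225 (0.32 ± 0.07, SE; adjusted p = 0.00165, edgeR). Its partner Col9a3 had 55 and 51 counts in the WT libraries against 54 and 50 in CBE-KO and did not pass (-0.14 ± 0.23, SE; adjusted p = 0.657, edgeR). Col22a1, known from the junction of muscle and tendon, had 29 and 31 counts in the WT libraries against 57 and 68 in CBE-KO (0.94 ± 0.27, SE; adjusted p = 0.00864, edgeR). It did not pass in DESeq2 (adjusted p = 0.118) or without CBE-KO replicate 2 (adjusted p = 0.12, edgeR). Col13a1, a membrane-anchored collagen, rose from 310 and 251 counts to 451 and 389 (0.46 ± 0.10, SE; adjusted p = 0.00117, edgeR). Col17a1 had 54 and 111 counts in its WT libraries, a gap wider than that between the groups, and did not pass. Col23a1, also membrane-anchored, had 1 and 8 counts in the WT libraries against 4 and 12 in CBE-KO and was not tested.

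**Figure D2:**
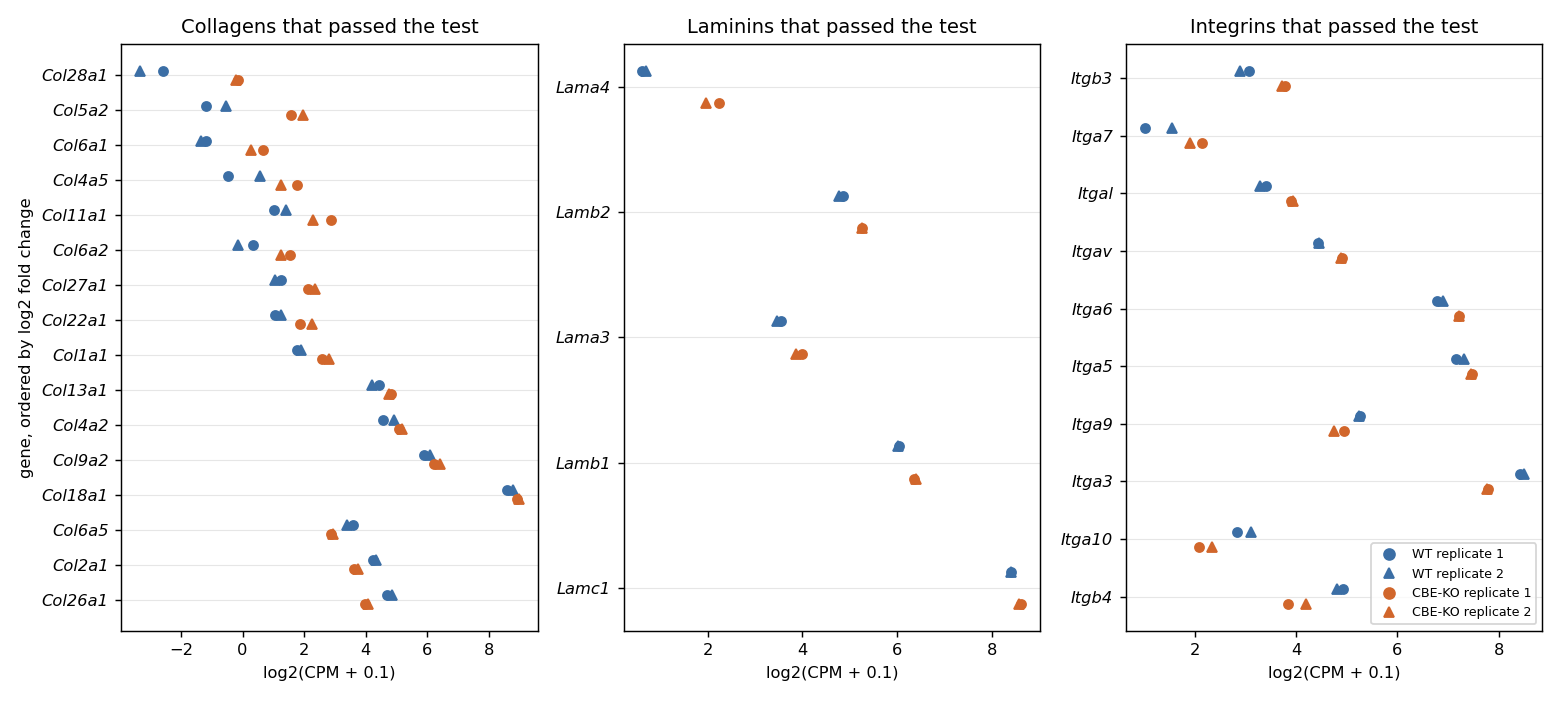
Points are log2(CPM + 0.1) in each library (x axis; WT blue, CBE-KO orange, replicate 1 circles, replicate 2 triangles) for the 16 collagens, 5 of the 6 laminins and the 10 integrins that passed. Col18a1, Lamc1 and Itga3 sit farthest right, and the 7 collagens with a log2 fold change of at least 1 sit at the low end, none above a WT mean of 2.23 CPM (Col11a1).

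Laminin chains of every class rose, among them 2 of 3 tested alpha chains and 2 of 3 beta chains (66.7% of each, against 21.6% of all tested genes). Lamc1 (ENSMUSG00000026478), the gamma chain of most laminins, gave 51% to 52.4% of laminin reads. It had 4979 and 4633 counts in the WT libraries against 6392 and 5587 in CBE-KO, a small rise of 0.20 ± 0.05 (log2, SE; adjusted p = 0.00193, edgeR). Lamb1 (ENSMUSG00000002900), the beta chain it joins in the early embryo, rose from 954 and 893 counts to 1335 and 1222 (0.35 ± 0.06, SE; adjusted p = 0.000104, edgeR). Lamb2, a beta chain of later basement membranes, rose from 421 and 375 counts to 617 and 554 (0.44 ± 0.08, SE; adjusted p = 0.000268, edgeR). For each of these, both CBE-KO libraries lay above both WT libraries.

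The alpha chains, which carry the sites that integrins bind, did not move alike. Lama5, an alpha chain of the early epiblast, had 2760 and 2798 counts in the WT libraries against 3120 and 2934 in CBE-KO, or 196 ± 10.3 and 197 ± 6.65 CPM (SD, n = 2 each). Its log2 fold change was 0.01 ± 0.05 (SE; adjusted p = 0.945, edgeR), and the sign turned with median-of-ratios scaling. Lama4, typical of vessel walls, had 21 and 21 counts in the WT libraries against 75 and 55 in CBE-KO (1.5 ± 0.28, SE; adjusted p = 0.000303, edgeR). Lama3, an alpha chain of epithelia, had 169 and 151 counts in the WT libraries against 258 and 209 in CBE-KO (0.43 ± 0.13, SE; adjusted p = 0.0148, edgeR). Lamb3, a beta chain that Lama3 joins in epithelia, had 5 and 18 counts in the WT libraries against 20 and 20 in CBE-KO and did not pass (adjusted p = 0.297, edgeR). Lama1, left out by the rule, had a log2 fold change of 0.55 ± 0.08 (SE; adjusted p = 1.93e-05, edgeR).

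Within a library, the ratio of Lama5 to Lamc1 counts was 0.554 and 0.604 in WT and 0.488 and 0.525 in CBE-KO, lower in both CBE-KO libraries. Such a ratio does not depend on library scaling, and its size depends on gene length, so it is compared only between libraries. With 2 libraries against 2, an exact permutation test cannot give a two-sided p below 0.333. Lama2, not tested, had 12 and 8 counts in the WT libraries against 4 and 2 in CBE-KO, and Lamc3 had at most 7. The call for Lama3 was not stable: it did not pass in DESeq2 (adjusted p = 0.164), without WT replicate 2 (adjusted p = 0.0562, edgeR) or without CBE-KO replicate 1 (adjusted p = 0.108, edgeR).

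Integrins moved in both directions, and so did the 3 laminin-binding alpha subunits, of which 2 rose and 1 fell. Itga3 (ENSMUSG00000001507), which pairs with Itgb1 to bind laminins, was the most read integrin, with 5037 and 4946 counts in the WT libraries against 3593 and 3190 in CBE-KO. Scaled levels were 352 ± 10.5 CPM in WT and 220 ± 1.52 in CBE-KO (SD, n = 2 each), and the fall was -0.68 ± 0.05 on the log2 scale (SE; adjusted p = 5.22e-09, edgeR). Its share of all integrin reads went from 36.8% and 37% to 24.7% and 25%. Itga6 (ENSMUSG00000027111), another laminin receptor that pairs with Itgb1, rose from 1600 and 1641 counts to 2422 and 2155 (0.38 ± 0.05, SE; adjusted p = 1.92e-05, edgeR). The ratio of Itga6 to Itga3 counts was 0.318 and 0.332 in WT and 0.674 and 0.676 in CBE-KO, 2.08 times higher and far beyond the gap between replicates. It restates the rise of Itga6 and the fall of Itga3 in the same libraries and is no separate result. Itga7, a laminin receptor of muscle, had 28 and 39 counts in the WT libraries against 70 and 53 in CBE-KO (0.75 ± 0.27, SE; adjusted p = 0.0315, edgeR). It did not pass in DESeq2 (adjusted p = 0.25), without WT replicate 1 (adjusted p = 0.216, edgeR) or without CBE-KO replicate 1 (adjusted p = 0.196, edgeR).

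Each beta subunit decides which alpha chains can reach the surface as a receptor. Itgb1 (ENSMUSG00000025809), partner of most alpha chains, had 1883 and 1774 counts in the WT libraries against 2363 and 1926 in CBE-KO, and did not pass (0.11 ± 0.05, SE; adjusted p = 0.117, edgeR). It passed as higher with upper-quartile scaling (adjusted p = 0.0383, edgeR), with library totals (adjusted p = 0.00292, edgeR) and without CBE-KO replicate 2 (adjusted p = 0.0488, edgeR). Itgb4, which pairs with Itga6 in the hemidesmosomes of epithelia, fell from 446 and 387 counts to 232 and 266 (-0.85 ± 0.11, SE; adjusted p = 1.12e-05, edgeR). The ratio of Itgb4 to Itgb1 counts was 0.237 and 0.218 in WT and 0.0982 and 0.138 in CBE-KO, lower in both CBE-KO libraries. Itgb5 and Itgb7 did not pass, and Itgb6 and Itgb8 stayed at or under 3 counts.

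Receptors of fibronectin and vitronectin, which read the peptide Arg-Gly-Asp, rose where they passed. This held for 2 of 4 alpha subunits (50%, where 21.6% of all tested genes were higher). Itga5, the fibronectin receptor alpha chain, rose from 2092 and 2189 counts to 2878 and 2541 (0.22 ± 0.05, SE; adjusted p = 0.00336, edgeR), and by 0.14 without WT replicate 1. Itgav, which binds vitronectin and latent TGF-beta, rose from 314 and 301 counts to 489 and 431 (0.46 ± 0.09, SE; adjusted p = 0.000434, edgeR). Itgb3, its beta partner in the vitronectin receptor, rose from 121 and 101 counts to 222 and 190 (0.77 ± 0.15, SE; adjusted p = 0.000399, edgeR). Against Itgb5, another partner of Itgav, the Itgb3 count ratio was 0.156 and 0.146 in WT and 0.298 and 0.283 in CBE-KO. Itga8 and Itga2b did not pass, although Itga2b passed as higher with library totals.

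**Figure D3:**
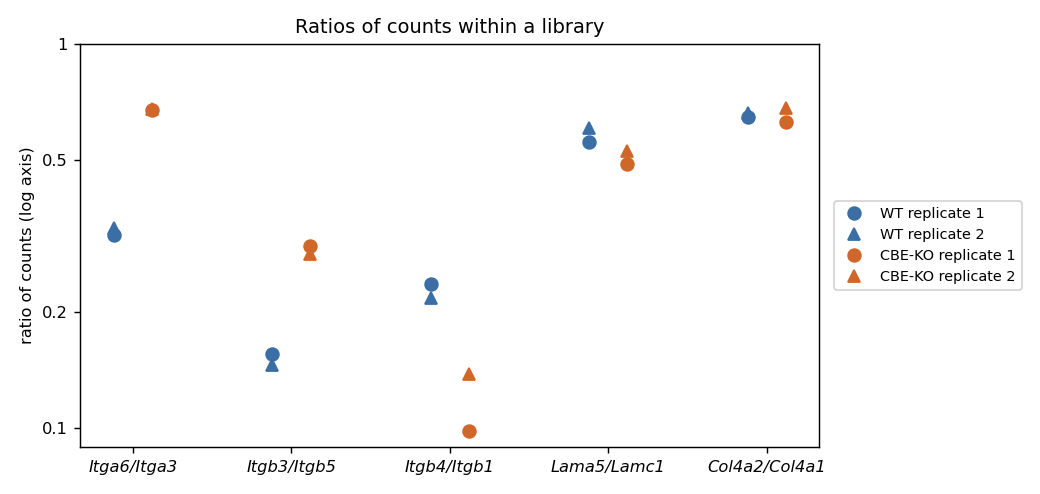
Points are ratios of raw counts of 2 genes within a library (y axis, log scale; WT blue, CBE-KO orange, replicate 1 circles, replicate 2 triangles) for 5 gene pairs. Itga6/Itga3 went from 0.318 and 0.332 to 0.674 and 0.676, Itgb4/Itgb1 fell in both CBE-KO libraries, and Col4a2/Col4a1 overlapped between groups.

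Among the remaining integrins, Itga9, which binds tenascin, fell from 563 and 519 counts to 499 and 389 (-0.41 ± 0.09, SE; adjusted p = 0.000957, edgeR). Itga10, a collagen receptor of cartilage, fell from 103 and 117 counts to 67 and 72 (-0.78 ± 0.20, SE; adjusted p = 0.00408, edgeR). The other collagen receptors were near the limit of detection: Itga11 had at most 15 counts, Itga1 had 20 and 9 in WT and 7 and 6 in CBE-KO, and Itga2 had at most 6. Itga4 did not pass, although it did as higher with library totals (adjusted p = 0.0499, edgeR). Itgal, the alpha chain of a leukocyte adhesion receptor, rose from 154 and 134 counts to 241 and 221 (0.56 ± 0.13, SE; adjusted p = 0.00239, edgeR). Its required partner Itgb2 had 12 and 14 counts in the WT libraries against 3 and 9 in CBE-KO and did not pass (-1.21 ± 0.58, SE; adjusted p = 0.102, edgeR). Of 7 leukocyte markers, Coro1a rose from 284 and 283 counts to 439 and 434, and Laptm5, with 1013 to 1297 counts, and Spi1, with 18 to 29, did not pass. Tyrobp was at 0 in every library, and Ptprc had at most 3 counts. Their part in the rise of Itgal was not tested. Itgae, another leukocyte subunit, did not pass (0.62 ± 0.26, SE; adjusted p = 0.0593, edgeR), although it did with upper-quartile scaling, library totals and some other settings.

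Large changes were seen in genes with few reads. A log2 fold change of at least 1 with a passing test was reached by 8 of the 56 members, all higher: Col28a1, Col5a2, Col6a1, Col4a5, Col11a1, Col6a2, Col27a1 and Lama4. The highest WT mean among them was 2.23 CPM, for Col11a1. Among all tested genes 6.09% were higher by this rule and 2.55% lower. Without Col28a1, Col5a2 and Col6a1, which were tested only through their CBE-KO counts, 5 of 53 members remained. These 5 still include Col4a5, which also needed its CBE-KO counts to be tested. The count of integrins was 0 in edgeR, also at an unadjusted p under 0.05, and 0 in DESeq2. Summed over each family and scaled, reads went from 614 and 694 CPM in WT to 755 and 783 in CBE-KO for collagens and from 652 and 660 to 752 and 747 for laminins. For integrins they went from 936 and 972 to 896 and 876 CPM. Collagen and laminin sums were higher in both CBE-KO libraries and the integrin sum was lower in both. The integrin sum without Itga3 was 592 and 612 CPM in WT and 674 and 657 in CBE-KO, higher in both CBE-KO libraries. With library totals, the sum over all integrins was 897 and 941 CPM in WT and 930 and 904 in CBE-KO, and the groups overlapped.

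Genes that act with these families were counted from 5 further lists, also chosen with earlier results of these data known. Each change named from them passed in edgeR. Of 12 tested matrix partners, 8 rose and 1 fell (66.7% and 8.33%, against 21.6% and 21.5% of all tested genes). Their median log2 fold change was 0.35. With library totals, 8 rose and none fell, and in DESeq2 7 rose and 1 fell. Fbn2, a microfibril protein, had the largest change, from 32 and 43 counts to 145 and 169 (1.95 ± 0.22, SE). Efemp1 and Npnt, the latter a ligand of integrins, rose by 1.57 ± 0.43 and 1.51 ± 0.22 (log2, SE). Efemp1 was tested only through its CBE-KO counts (25 and 27, against 10 and 6 in WT). It did not pass in DESeq2 (adjusted p = 0.117). Fn1, which encodes fibronectin, rose from 10288 and 9802 counts to 15790 and 13758 (0.44 ± 0.04, SE), and Hspg2, the proteoglycan perlecan, fell by 0.19 on the log2 scale. Of 20 tested genes of collagen folding and crosslinking, 7 rose and 4 fell (8 and 2 with library totals, 4 and 2 in DESeq2), with a median of 0.10. In edgeR this is 35% higher and 20% lower, the latter near the share of all genes. Loxl4 had the largest change, a fall from 23 and 28 counts to 2 and 7 (-2.58 ± 0.53, SE), and was tested only through its WT counts. Adamts2, which trims procollagen, followed (1.19 ± 0.44, SE, DESeq2 adjusted p = 0.282), and then P4ha2, a prolyl hydroxylase subunit (0.71 ± 0.09, SE). Adamts2 had 11 and 9 counts in WT against 34 and 16 in CBE-KO. WT replicate 2 was below the filter's cutoff, so Adamts2 needed its CBE-KO counts to be tested.

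Of 16 tested integrin adaptors and focal adhesion genes, 3 rose and 6 fell, with a median of -0.01. This is 18.8% higher and 37.5% lower, against 21.6% and 21.5% of all tested genes. With library totals 5 rose and 3 fell, in DESeq2 1 rose and 6 fell, and without WT replicate 1 none rose and 6 fell. Parvb fell from 1683 and 1671 counts to 862 and 739 (-1.19 ± 0.06, SE), Actn4, an actin crosslinker, fell from 21678 and 20818 to 12726 and 11375 (-0.94 ± 0.04, SE), and Zyx fell by 0.53 on the log2 scale. Ilk, the integrin-linked kinase, had at most 2 counts. Its RefSeq span shares 32 bases with Taf10, and how reads in shared bases were counted is not given in the sources used here. Whether this bears on the low count of Ilk was not tested. Of 9 other matrix receptors, 4 rose and 2 fell (44.4% and 22.2%, the latter near the share of all genes), with a median of 0.16. The counts were 5 and 1 with library totals, 4 and 1 with upper-quartile scaling, and 2 and 1 in DESeq2. Sdc4, a syndecan at focal adhesions, fell from 1186 and 1147 counts to 505 and 468 (-1.38 ± 0.07, SE). Its relative Sdc2 rose by 1.15 ± 0.19 and the collagen receptor Ddr2 by 1.07 ± 0.26 (log2, SE), Ddr2 without passing in DESeq2 (adjusted p = 0.0538). Of 14 matrix proteases and inhibitors, 7 rose and 1 fell, 50% and 7.14% (4 and 1 in DESeq2), with a median of 0.58. Mmp2, a gelatinase that cleaves collagen IV, rose from 127 and 157 counts to 352 and 329 (1.14 ± 0.13, SE), while Mmp9, the other gelatinase, fell from 734 and 638 to 391 and 354 (-1.0 ± 0.08, SE), and Mmp15 rose by 0.86 ± 0.10.

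**Figure D4:**
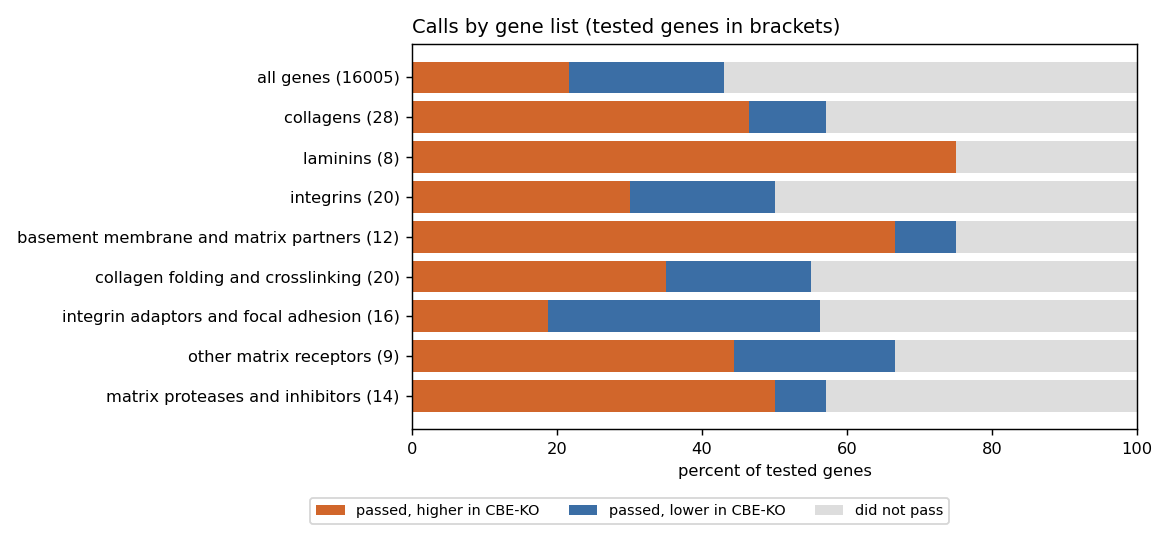
Bars give the percent of tested genes in each list (x axis; number tested in brackets) that passed as higher in CBE-KO (orange), passed as lower (blue) or did not pass (grey). Laminins and matrix partners hold the largest orange shares, 75% and 66.7%, against 21.6% of all genes, and integrin adaptors hold the largest blue share, 37.5%.

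Markers of other cell types that make these proteins were read beside the results. Extraembryonic endoderm, a strong source of laminin and collagen IV, was followed by 14 genes whose summed level was 103 and 105 CPM in WT and 110 and 111 in CBE-KO. Of the 10 tested, 4 rose, Gata4 (0.72 ± 0.16, SE), Sox7, Dab2 and Cubn, and 2 fell, Hnf4a (-1.62 ± 0.25, SE) and Amn. In edgeR the shares were 40% higher and 20% lower, against 21.6% and 21.5% of all tested genes. DESeq2 called 2 of these markers higher and 2 lower. Its adjusted p was 0.0934 for Dab2 and 0.165 for Cubn, so the rises of these genes rest on edgeR alone. Gata6 had 763 and 679 counts in the WT libraries against 821 and 752 in CBE-KO and did not pass, and Ttr and Thbd were at or under 3 counts. Fibroblast and feeder cell markers summed to 25.9 and 28.4 CPM in WT and 41.7 and 45.4 in CBE-KO. Of these 11 genes, Dcn, Lum, Postn, Prrx1, Twist2 and Fap were at 0 in all 4 libraries, and almost all of the sum came from Thy1, Pdgfrb and Twist1, of which Pdgfrb and Twist1 rose. Endothelial markers summed to 22.6 and 22.3 CPM in WT and 26.3 and 27.5 in CBE-KO, with Emcn at 0 and Cdh5 at most 6 counts. Tek rose by 2.3 ± 0.22 (log2, SE), from 1.78 and 2.11 CPM in WT to 9.98 and 9.14 in CBE-KO. The other tested markers had negative log2 fold changes. Esam was lower (-0.65 ± 0.22, SE) without passing in DESeq2 (adjusted p = 0.219). Egfl7, the most read of them (14.7 and 13.7 CPM in WT, 11.9 and 14 in CBE-KO), and Tie1 did not pass. Leukocyte markers summed to 90.6 and 105 CPM in WT and 109 and 112 in CBE-KO, most of it from Laptm5, which did not pass, while Coro1a rose by 0.51 ± 0.10. What part these cell states have in the rises of collagens and laminins was not tested.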

How the data were processed

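The deposited values are raw counts of reads per mouse Ensembl gene in 4 RNA-seq libraries, as the authors left them. Not analysed here were 6 Capture-C samples. The submitters' processing notes name HISAT2 2.1.0, HTSeq 0.9.1, DESeq2 1.18.1, Bowtie2 2.3.1 and mm10, without roles; strand use, annotation release and treatment of multiply matching reads are not given in the sources used here, so genes that overlap others are uncertain, which in RefSeq spans holds for 11 of the 79 members against protein-coding genes. Groups and replicate numbers came from sample titles.

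Counts were filtered with filterByExpr (16005 genes), TMM-scaled (edgeR's default normalization factors) and tested on the whole table with edgeR 4.0.16 (R 4.3.3; glmQLFit, glmQLFTest; two-sided; Benjamini-Hochberg over all tested genes; threshold 0.05). The standard error is the size of the log2 fold change divided by the square root of its F statistic. CPM are TMM-scaled. DESeq2 1.42.0, other scalings, filters, thresholds, robust moderation, a replicate block and leaving out each library were alternatives. Scripts were tested on simulated data. Intervals for ratios of counts are exact conditional binomial ones on library totals and, like the floor of 3 counts, cover counting error only. P-values rest on the spread between these libraries, with each gene's estimate of it moderated by that of other genes. Members and lists were chosen with earlier results of these data known. Named were the members that passed (1 is not reported here by name), chosen chain partners, untested members that reached 10 counts, and the 3 largest changes that passed in each further list; other genes were named after their values were seen. All 79 members had RefSeq positions. Promoter windows and gene spans came from RefSeq GRCm38.p6. Levels are not compared between genes, since transcript lengths were not used here.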

Additional observations from a re-analysis of the deposited data

How the results depend on the processing

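All 32 passing members kept their direction under each alternative that gave them a value, and 32 passed with each other scaling, without a filter, with robust moderation and with the replicate block. At an adjusted p under 0.01, 30 passed, without Itga7 and Lama3. DESeq2 passed 22 of 31; it called 4146 genes in all, 8 collagens and 29 of the 43 in the 5 further lists. Where the change also had to reach 1 on the log2 scale, the counts were 1383 for all genes, 7 collagens, 1 laminin, 0 integrins and 10 of those 43. Leaving out 1 library, which assumes that the lone library of a group varies like the other group, gave 5492 to 6420 genes in all, 12 to 18 collagens, 5 to 6 laminins, 9 to 12 integrins and 34 to 37 genes of the further lists, a set of alternatives added for those lists after the data were seen. Medians ranged from 0.25 to 0.44 for collagens, 0.37 to 0.54 for laminins and 0.13 to 0.25 for integrins, the highest with library totals. The summed integrin level, -68.2 CPM in CBE-KO minus WT, was -2.07 with library totals and 63.7 without Itga3, both added after the data were seen. Lama5, which did not pass under any of them, turned to -0.00839 in DESeq2 and to -0.00591 under median-of-ratios factors, and, with 1 library left out, ranged from -0.05 to 0.05 (-0.05 without WT replicate 1, -0.03 without CBE-KO replicate 2). Members that did not pass with all libraries but did with 1 left out were Col5a3, Itga4 and Itgae without WT replicate 1, Col17a1, Itga2b, Itgb5 and Lamb3 without WT replicate 2, and Col6a4 and Itgb1 without CBE-KO replicate 2. The labels give both groups the replicate numbers 1 and 2 but no shared origin, and deviations of same-numbered libraries had a correlation of 0.035. With the replicate block 7027 genes, 16 collagens, 6 laminins, 11 integrins and 42 genes of the further lists passed, Itgae being the added integrin. The causes of these shifts were not tested. Depth limits the 23 members that were not tested, most of them under 10 counts in every library.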

Other observations

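Several members lie side by side in the genome (RefSeq, GRCm38), and neighbours did not always move alike. Col6a2 and Col6a1 on chromosome 10, 85.2 kb apart, both rose. Col1a1 (chr11:94936224-94953042) rose, while Itga3 (chr11:95044475-95076844), 91.4 kb away, fell. In the run of Col6a6, Col6a5 and Col6a4 on chromosome 9, Col6a5 fell and neither neighbour passed. Col5a2 rose 24.6 kb from Col3a1, which was at 0 counts in WT and at 8 and 1 in CBE-KO. Col4a5 on the X chromosome rose, and Col4a6, which starts 1.27 kb away, had 2 and 4 counts in the WT libraries against 12 and 3. Col1a2 and Col28a1 are the members on chromosome 6, which also carries the HoxA cluster, at 47.6 and 44 Mb from it. Both had at most 1 count per library in WT and between 8 and 13 in CBE-KO. Col1a2 was not tested, and Col28a1 was tested only through its CBE-KO counts. Any link between their position and their counts was not tested.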
